A study of Mus musculus with 87 samples.

Results

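The 38 genes described here are interferon-stimulated genes, whose transcripts accumulate when a cell responds to interferon, and they were followed through 13 RNA-seq comparisons of mouse embryonic stem cells (ESC) and neuronal precursors (NP) with altered Suz12. They are 38 of the 26171 gene symbols in each comparison table and were found by name. The list was drawn up because the Ifit genes and Isg15 were among the largest rises in Suz12 knock-out NP and fell when the long Suz12 isoform was put back. Values in the NP comparisons of KO with WT and of KO-L with KO therefore chose the genes and are given below as a description, with no test. All 38 symbols were present in all 13 tables.

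Suz12 encodes a core component of PRC2, the Polycomb complex that places the repressive histone mark H3K27me3, and its exon 4 is alternatively spliced into a long and a short isoform. All cells belong to the mouse line 129-B13. The groups were wild type (WT), cells in which exon 4 is always included (CSex4), cells with exon 4 of Suz12 deleted (Deltaex4), a complete Suz12 knock-out (KO), and that knock-out with the long isoform (KO-L) or the short isoform (KO-S) restored. KO-L3D and KO-S3D are the knock-out carrying, in the Rosa26 locus, a long or short isoform that bears a mutation labelled 3D, which lies downstream of exon 4. ESC were grown in 20% serum with LIF, and NP came from embryoid bodies of these cells given retinoic acid on day 4 and harvested on day 8. PolyA RNA of 18 ESC samples was sequenced (3 WT, 3 KO and 2 of each other group) together with 14 NP samples (4 WT and 2 of each other group; the 3D lines were not among them). The labels do not say how many clones stand behind a group or whether samples of a group came from separate cultures, so p-values measure only the spread between these samples.

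The tables hold statistics, and the whole reads behind them were recovered for each library from the deposited means, giving 15430152 to 19978017 reads in ESC and 21402073 to 42965611 in NP. Libraries of a group are called a, b, c and d, and the letters carry no order and match no replicate number. A level below is in scaled reads, that is reads divided by the size factor of the library; it is not divided by transcript length and compares libraries, not genes. Suz12 transcript was lower in KO than in WT in the authors' deposited tables (log2 fold change -1.82 in ESC and -2.14 in NP). The ESC libraries expressed Pou5f1, Nanog and Sox2, which mark pluripotent cells. The neural precursor markers Sox1, Pax6, Nes, Neurog2, Dcx, Tubb3, Hes5 and Fabp7 summed to 10888 to 37841 scaled reads in NP WT and to 2694 to 3117 in NP KO, so the KO libraries carry the label NP with low levels of the markers of that cell type. In bulk RNA, fewer cells of a type and less RNA per cell cannot be told apart.

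Interferons are secreted proteins that bind receptors coupled to Janus kinases, which phosphorylate STAT proteins. Type I and type III interferons lead to ISGF3, a complex containing STAT2 and IRF9 that binds the interferon-stimulated response element (ISRE), and type II interferon acts mainly through STAT dimers at gamma-activated sequences (GAS). The response can also start inside the cell, where RNA sensors such as RIG-I (Ddx58) and MDA5 (Ifih1) signal through MAVS to IRF3 and IRF7. Pluripotent stem cells are known for a weak interferon response, which is gained as cells differentiate.

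The sequence these genes share was examined in RefSeq promoter windows of the GRCm38.p6 build, from 250 bases before to 50 bases after each annotated start, on both strands. The ISRE core (GAAA, any 2 bases, GAAA) was present in 17 of 32 windows of the interferon-stimulated genes (53.1%), against 3.44% of all 32851 windows. It was found in 16 of the 28 genes that had a window, namely Ifit1, Ifit3, Ifit3b, Isg15, Rsad2, Bst2, Eif2ak2, Trim30a, Oas1a, Oas3, Ddx58, Ifih1, Stat2, Gbp3, Igtp and Irgm1. The GAS motif TTCNNNGAA was in 6 windows (18.8%, against 8.30% of all windows), and an NF-kappaB type motif (GGG, any 5 bases, CC) was in 19 (59.4%, against 50.8%). Motif matches are letters in a window and were not tested as binding sites, and the list was chosen by name, so the share is a description.

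The stretches that end at the base before the annotated start of 7 genes follow, 5′ to 3′ on the strand of the gene, to show where the ISRE core lies; capitals mark ISRE core matches on either strand, overlapping ones merged. They were taken from RefSeq, GRCm38.p6. Ifit1 lies at chr19:34640754-34640888 (plus strand), with 2 cores that read as the reverse complement. Isg15 lies at chr4:156200819-156200953 (minus strand), with 3 overlapping cores. Rsad2 lies at chr12:26456453-26456587 (minus strand), Bst2 at chr8:71537473-71537607 (minus strand), Igtp at chr11:58199421-58199555 (plus strand) and Irgm1 at chr11:48871421-48871555 (minus strand). Ifi35 at chr11:101448277-101448411 (plus strand) is shown as a gene of the list without a match.
Ifit1: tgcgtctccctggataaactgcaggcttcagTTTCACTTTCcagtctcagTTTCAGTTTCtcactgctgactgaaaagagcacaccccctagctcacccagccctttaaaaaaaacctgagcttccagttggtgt
Isg15: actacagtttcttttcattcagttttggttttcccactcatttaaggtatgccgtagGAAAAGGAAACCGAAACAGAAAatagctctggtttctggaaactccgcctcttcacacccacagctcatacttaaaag
Rsad2: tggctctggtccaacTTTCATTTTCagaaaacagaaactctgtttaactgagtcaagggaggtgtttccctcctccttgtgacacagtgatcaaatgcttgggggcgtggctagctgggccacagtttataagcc
Bst2: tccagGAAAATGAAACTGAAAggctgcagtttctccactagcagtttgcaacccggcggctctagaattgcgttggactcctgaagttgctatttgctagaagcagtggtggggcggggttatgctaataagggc
Igtp: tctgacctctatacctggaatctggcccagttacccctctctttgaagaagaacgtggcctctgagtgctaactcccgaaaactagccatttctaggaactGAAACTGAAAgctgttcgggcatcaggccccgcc
Irgm1: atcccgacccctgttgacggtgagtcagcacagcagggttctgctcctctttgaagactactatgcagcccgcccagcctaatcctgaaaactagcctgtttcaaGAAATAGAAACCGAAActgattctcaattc
Ifi35: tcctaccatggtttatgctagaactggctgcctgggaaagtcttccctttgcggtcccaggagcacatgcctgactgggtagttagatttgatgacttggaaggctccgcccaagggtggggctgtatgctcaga
The nearest core begins 34 bases before the start in Igtp and 24 in Irgm1, GTPase genes known for their response to interferon-gamma. It begins 66 bases before the start in Isg15, 85 in Ifit1, 120 in Rsad2 and 124 in Bst2.

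In NP, every one of the 38 genes was higher in both KO libraries than in all 4 WT libraries, an ordering that 29.1% of the 17039 genes with a mean of at least 5 scaled reads showed. The median over the 38 genes of log2(scaled reads + 1) was 10.52 and 10.28 in the KO libraries and 5.02 to 6.10 in the WT libraries. In the authors' deposited table of KO against WT, which uses WT libraries a and b, 36 of 38 genes were called higher at an adjusted p under 0.05, where 11.6% of all genes tested were called higher, and 0 were called lower (9.85%). Their median log2 fold change was 4.31 against 0.02 over all genes in the authors' deposited table. Mx1 had no read in WT a or b, so its fitted value is no bound; with Mx1 at a floor of 3 reads per library the median was 4.07. These counts restate the choice of the genes. Near-identical copies (Ifit3 and Ifit3b) may share reads, since how reads with several matches were counted is not given in the sources used here.

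The induced antiviral effectors were the largest role, with 17 members. Ifit1, which binds viral RNA that lacks host cap methylation, had 2309 and 2006 scaled reads in KO libraries, 41.6, 20.8, 29.4 and 20.4 in WT, 11.4 and 15.8 in KO-L and 349.8 and 156 in KO-S. The KO libraries were far above the rest, KO-S lay between KO and WT, and both KO-L libraries were below all 4 WT libraries. Rsad2, which encodes viperin, an enzyme that makes a chain-terminating nucleotide, had 2174 and 2304 in KO, 55.8, 31.2, 36.3 and 16.9 in WT, 72.0 and 90.3 in KO-L, and 142 and 77.0 in KO-S. Here KO-L and KO-S overlapped each other and lay above all WT libraries. Ifi44 was close to absent outside KO: 460.4 and 496 scaled reads in KO against 2.60 to 5.76 in WT, 2.84 and 5.65 in KO-L and 28.2 and 17.1 in KO-S. Mx1, a GTPase that blocks viral nucleocapsids, had 35.1 and 28.4 in KO and 0 in both KO-L libraries, at least 10.2-fold lower with a floor of 3 reads per library. The smallest change called among the effectors was that of Eif2ak2, the RNA-activated kinase PKR, with a log2 fold change of 1.16 ± 0.38 (SE) in the authors' deposited table. Eif2ak2 was at 1746 and 1339 scaled reads in KO and already at 571 to 811 in WT.

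The oligoadenylate synthetase group is known for making the messenger that activates RNase L, an activity that Oasl1 lacks. Of its 5 members, 4 were called higher in KO, from 3.24 ± 0.35 for Oasl2 to 4.75 ± 0.82 (log2, SE) for Oasl1 in the authors' deposited table. Oas3 was not called (1.06 ± 0.63, adjusted p 0.25, authors' deposited table). It had 183 and 112 scaled reads in KO against 72.3, 64.0, 14.96 and 30.2 in WT, so the libraries did not overlap. All 4 genes of the ISG15 system were called. Isg15 itself, the ubiquitin-like modifier, went from 16.9 to 23.4 scaled reads in WT to 2077 and 1755 in KO, with 43.6 and 44.0 in KO-L and 199 and 80.8 in KO-S. Usp18, which removes ISG15 from proteins and restrains the type I receptor, had 3330.0 and 2623 in KO against 40.7 to 112 in WT. Trim25, an E3 ligase for RIG-I and ISG15, changed least (1.46 ± 0.41 in the authors' deposited table), from 985 to 2652 in WT to 4720.2 and 4237 in KO.

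RNA sensors, transcription factors, the PARP group and the interferon-gamma type GTPases had smaller or similar changes. For the sensors the authors' deposited table gave 3.71 ± 0.45 for Ifih1, 2.79 ± 0.39 for Ddx58 and 2.33 ± 0.56 for Dhx58, a regulator of the other two. Irf7, the transcription factor that amplifies type I interferon production, had 569 and 184 scaled reads in KO against 10.4 to 15.97 in WT, and the 2 KO libraries lay further apart for it than for any other member. Irf9 had a log2 fold change of 2.23 ± 0.39 in the authors' deposited table. Stat2 was the member with the smallest value (0.36 ± 0.35, adjusted p 0.54, authors' deposited table): it had 1484 and 1195 in KO and 800.0 to 1121 in WT. Parp14 (3.68 ± 0.41), an ADP-ribosyltransferase, and Dtx3l (2.23 ± 0.40), an E3 ligase that pairs with Parp9, bounded the PARP group in the authors' deposited table. Irgm1, an immunity-related GTPase, had 4019 and 4691 in KO against 56.8 to 135.1 in WT, and Igtp and Gbp3 had log2 fold changes of 3.81 ± 0.37 and 4.21 ± 0.50 in the authors' deposited table.

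**Figure D1:**
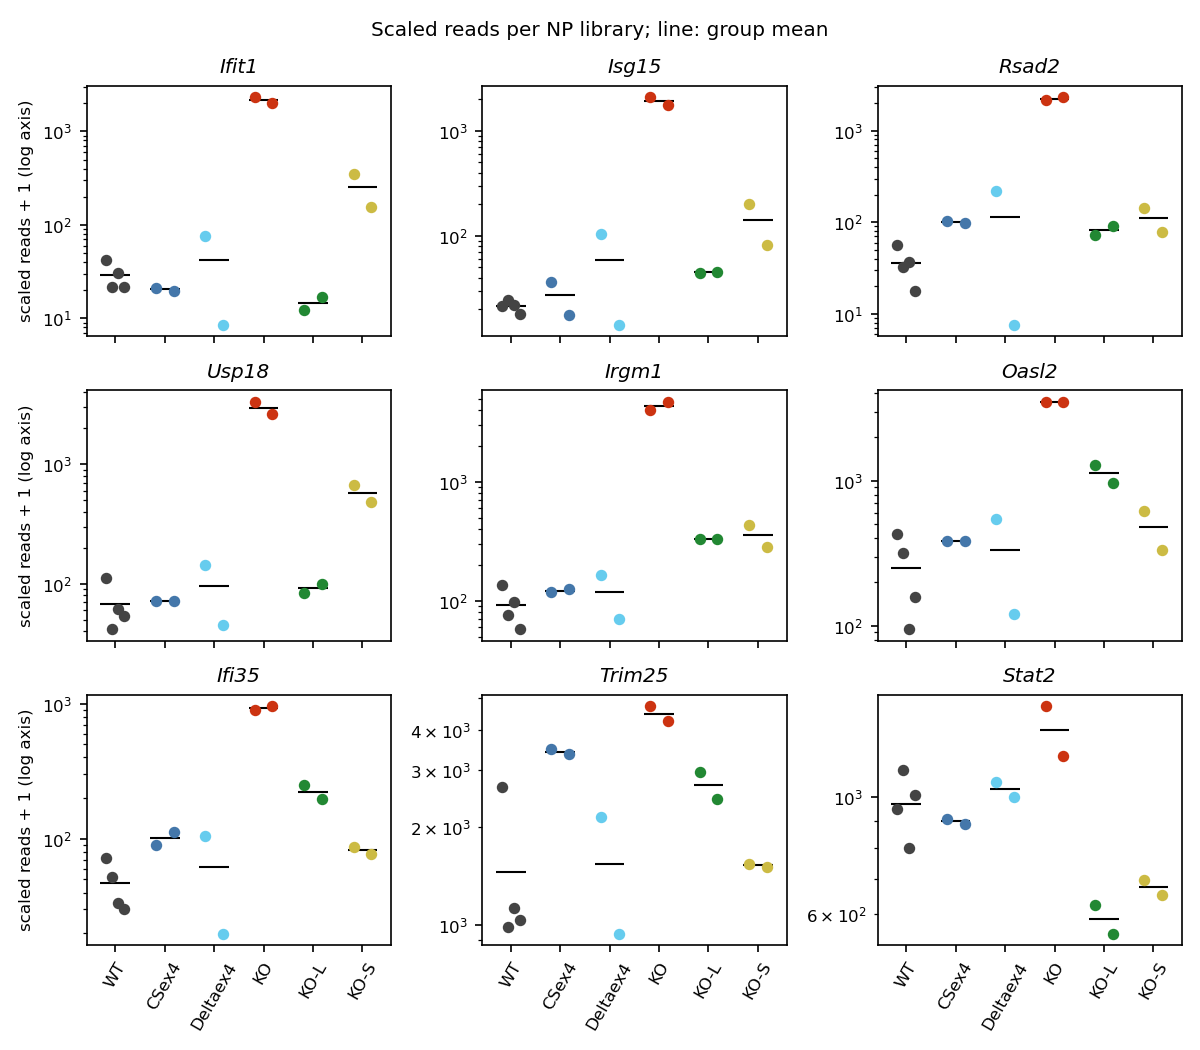
Scaled reads plus 1 (log axis) in each of the 14 NP libraries for Ifit1, Isg15, Rsad2, Usp18, Irgm1, Oasl2, Ifi35, Trim25 and Stat2; points are libraries and lines group means. The 2 KO points lie above all others in each panel, by a wide margin for Ifit1 (2309 and 2006, against at most 349.8 elsewhere) and by a small one for Stat2 (1484 and 1195, against at most 1121).

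WT libraries c and d were also compared with the same KO libraries. Those KO libraries are in the contrast that chose the genes, so these counts are a description. Of the 38 genes, 37 were called lower in WT (17.3% of all genes tested were) and 0 higher (15.6%), with a median of -4.78 in the authors' deposited table. Stat2 was not called there either (-0.56 ± 0.31, adjusted p 0.16, authors' deposited table).

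With either isoform restored, most of the genes were far below their KO levels in NP. In the authors' deposited table of KO-L against KO, all 38 genes were called lower (13.8% of all genes tested were) and 0 higher (10.9%), with a median log2 fold change of -3.44; it was -3.34 with Mx1 at its floor. KO-S against KO had 36 called lower (18.0%) and 0 higher (16.4%), with a median of -3.20 in the authors' deposited table, and Mx1 (adjusted p 0.086) and Mx2 (0.051) were not called. The KO libraries are shared by both comparisons and by the choice of the genes. Markers of cell types moved in the same libraries. Neural precursor markers summed to 2694 and 3117 scaled reads in the KO libraries; in KO-L the sum was 9284 to 12492, and KO-S libraries had 14486 to 16052. In KO-L, fibroblast markers summed to 20884 to 23668 against 5184 to 5497 in KO, endothelial markers to 4496 to 4528 against 792 to 1425, and pluripotent markers to 15682 to 22719 against 3207 to 8610. Their part in the lower levels of the 38 genes was not tested. By role, the authors' deposited tables gave medians in KO-L and KO-S of -4.81 and -3.51 for the antiviral effectors, -4.77 and -2.72 for the ISG15 system, -2.75 and -3.21 for the oligoadenylate synthetases, and -1.53 and -2.30 for the PARP group.

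Set directly against each other, both KO-S libraries were above both KO-L libraries for 18 genes (37.0% of all genes showed this) and below them for 11 (36.6%), so the shares of the 38 genes were near those of all genes. Those higher in KO-S included Ifit1, Ifit2, Ifit3, Ifit3b, Mx1, Mx2, Isg15, Usp18, Rtp4, Ifi44 and Ddx58, and Usp18 had 668 and 479 scaled reads in KO-S against 82.4 and 98.2 in KO-L. Those lower in KO-S were Zbp1, Ifi35, Oasl2, Oas3, Trim25, Ifih1, Dhx58, Parp9, Parp14, Dtx3l and Gbp3, and Oasl2 had 618 and 335 in KO-S against 1286 and 964 in KO-L. Ifi35 had 86.5 and 76.0 in KO-S, 248 and 196 in KO-L and 29.3 to 70.7 in WT. The difference between the isoforms was not tested per gene in NP.

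In the rescued NP, these genes were more often above all WT libraries than below them. Both KO-L libraries were above all 4 WT libraries for 18 genes (29.3% of all genes) and below them for Ifit1, Mx2 and Stat2 (26.8%). Both KO-S libraries were above all WT libraries for 19 genes (18.8%) and below them for Stat2 alone (15.1%). Among the genes above WT in both rescues were Rsad2, Zbp1, Isg15, Igtp and Irgm1; Irgm1 had 331 and 326 scaled reads in KO-L and 429 and 280.4 in KO-S against at most 135.1 in WT. The median of log2(scaled reads + 1) was 6.33 and 6.41 in KO-L, against at most 6.10 in WT, and 7.27 and 6.32 in KO-S. Library a of KO-S was at least 2-fold above library b for 9 of the 38 genes (4.72% of all genes). Library b was above library a for 0 (1.73%).

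**Figure D2:**
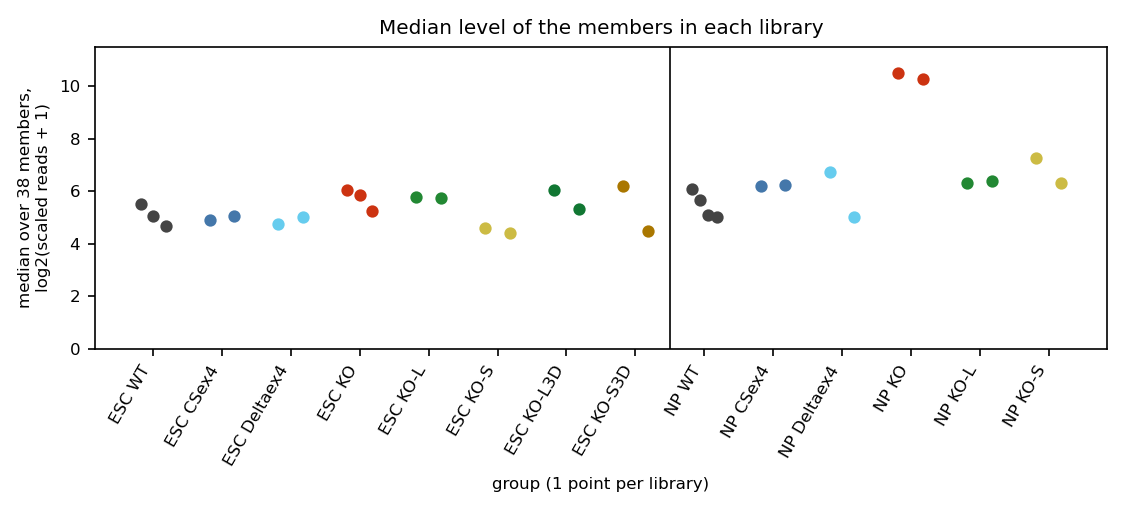
Median over the 38 genes of log2(scaled reads + 1) in each of the 32 libraries, by group, ESC and NP. The 2 NP KO libraries are at 10.52 and 10.28, all other NP libraries between 5.02 and 7.27, and the 18 ESC libraries between 4.41 and 6.19.

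The exon 4 lines in NP share WT libraries a and b with the contrast that chose the genes, so their values are set beside it. Of the 33 genes with an adjusted p in CSex4, 0 were called (4.08% of all genes tested were called higher and 1.45% lower), and of the 36 in Deltaex4, 0 were called (0.0289% and 0.0520%), in the authors' deposited tables. At an unadjusted p under 0.05 the counts were 1 (Trim25, 1.08 ± 0.39) and 0 in the authors' deposited tables, and limma on the recovered reads called 3 (12.9% of all genes were higher and 14.4% lower) and 0. The CSex4 median was 0.25 and the Deltaex4 median -0.01 in the authors' deposited tables. Trim25 had 3482 and 3360.1 scaled reads in CSex4 against 2652, 985, 1129 and 1034 in WT, where WT library a stood apart.

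The 2 Deltaex4 NP libraries did not resemble each other for these genes. Library a was at least 2-fold above library b for 29 of 38 genes, where 9.31% of all genes were, and library b above a for 0 (2.68%). Rsad2 had 219 scaled reads in library a and 6.61 in library b, and Isg15 103 and 13.2. Library a was above all WT libraries for both genes and library b below them. Csf1r, a receptor best known from macrophages, was also higher in library a (146 and 19.8 scaled reads, against 45.9 to 160.2 in WT). The macrophage markers Ptprc and Adgre1 were at 0 in both libraries. All 8 macrophage markers summed to 303 in library a and 62.3 in library b, and endothelial markers to 2631 and 830. Endoderm markers (3672 and 6490) and neural precursor markers (34500 and 35301) summed higher in library b. The part of other cells in the split of the 38 genes was not tested. A group mean over these libraries hides the split, and no call was gained in Deltaex4 without either library in limma.

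The rest of the pathway was read from lists of genes by role. Transcripts of interferons themselves were close to absent in NP KO: Ifna1, Ifna2, Ifna4, Ifna5, Ifne, Ifnl2 and Ifnl3 had 0 reads in both libraries, Ifnb1 had 1 read in KO b and Ifng 1 read in KO a. The 11 ligands summed to 6.29 and 13.2 scaled reads in KO and to 3.55 to 6.92 in WT, mostly Ifnk and Ifnz. None of them had an adjusted p in the KO tables, and other interferon genes were not listed. Of 6 receptors, 2 were called higher in NP KO, where 11.6% of all genes tested were, in the authors' deposited table: the interferon-lambda receptor chain Ifnlr1 (2.16) and its partner Il10rb (2.15).

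Downstream, the feedback inhibitors Socs1 (1.69) and Socs3 (1.06) were called higher in NP KO, where 11.6% of all genes tested were, in the authors' deposited table. Irf1 (1.71), a transcription factor that interferon-gamma induces, was called higher as well, as were Tlr3 (4.30), Ikbke (2.92) and Myd88 (1.85) of the 16 listed nucleic acid sensing genes in the authors' deposited table. Of 46 other interferon-inducible genes, 32 were called higher and 0 lower, led by Epsti1 (7.63) and Ifi47 (7.41) in the authors' deposited table. Of 13 NF-kappaB targets, 9 had an adjusted p and Cxcl10 (2.25), which interferon also induces, was called higher, against 11.6% of all genes tested, in the authors' deposited table. With the other WT libraries (WT against KO), Nfkbia (-0.83), Birc3 (-1.39), Icam1 (-1.18) and Cxcl10 (-1.47) were called lower in WT and Tnfaip3 (1.54) higher, against 17.3% and 15.6% of all genes tested, in the authors' deposited table. These values come from the contrast that chose the genes. In KO-L against KO, 34 of the 46 other inducible genes were called lower (13.8% of all genes tested) in the authors' deposited table. Pml (0.89) was the 1 called higher (10.9%). In KO-S against KO, 39 were called lower (18.0%) and 0 higher (16.4%) in the authors' deposited table. In CSex4, 6 of these 46 were called higher (33 had an adjusted p; 4.08% of all genes tested were called higher), led by Lgals9 (2.67) and Phf11d (2.31), in the authors' deposited table. Pluripotent markers summed to 31158 and 31890 scaled reads in the CSex4 libraries against 5171 to 11003 in WT, and endothelial markers to 6508 and 6632 against 482 to 1494; their part was not tested.

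Other cell types differed in the same KO libraries. Of the 8 neural precursor markers 7 were called lower in NP KO and none was called higher, in the authors' deposited table. Of the 7 endoderm markers, Foxa2, Gata4 and Gata6 were called higher and Afp and Apoa1 lower in the authors' deposited table, and the list summed to 8170 and 21802 scaled reads in KO, within the 2934 to 27272 of WT. The 8 macrophage markers summed to 286 and 522 scaled reads in KO and to 153 to 331 in WT, with Adgre1 at 0 in KO and Ptprc at 0 and 0.899. What part cell composition has in the levels of the interferon-stimulated genes was not tested.

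The 7 ESC comparisons share no library with the choice of the genes. In ESC, the median over the 38 genes of log2(scaled reads + 1) lay between 4.41 and 6.19 in the 18 libraries, against 5.02 to 6.10 in NP WT. Some of the genes were low. Isg15 had 12.2, 11.8 and 2.38 scaled reads in WT, Usp18 2.04, 0 and 2.38, and Ifi44 at most 1 read in any library. Others were well expressed, such as Trim25 with 4376 to 5368 scaled reads in WT, Bst2 with 1291 to 2158, Ddx58 with 946 to 1270.3 and Stat2 with 790.2 to 953.

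**Figure D3:**
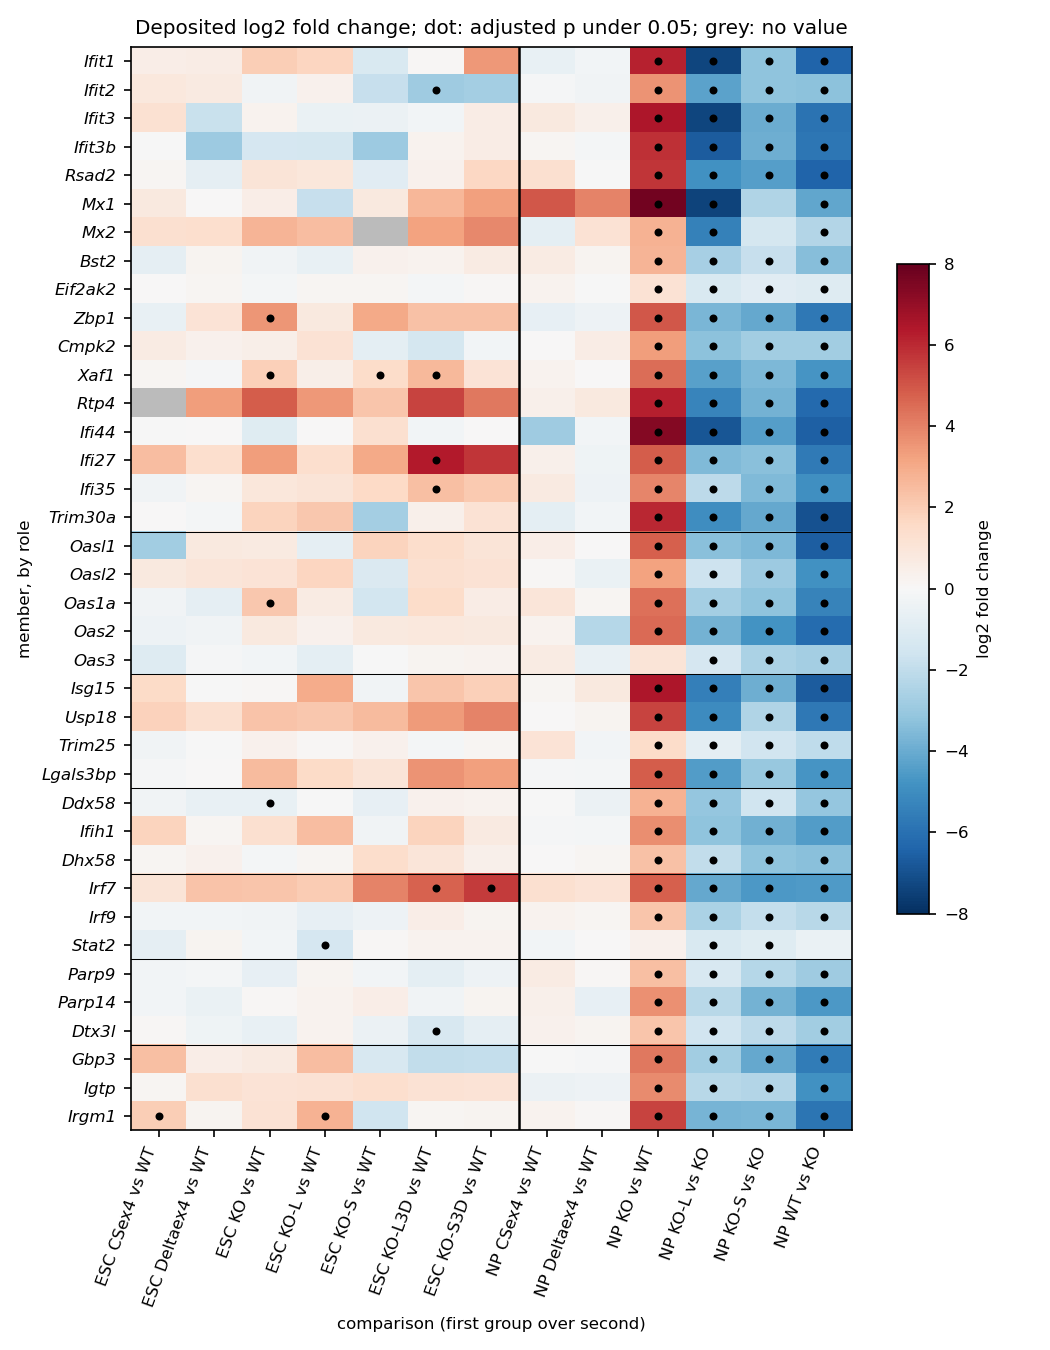
Log2 fold change of each of the 38 genes (rows, by role) in the 13 comparisons of the authors' deposited tables (columns); dots mark an adjusted p under 0.05 and grey cells have no value. The 3 comparisons of NP with KO as reference are lower throughout and NP KO against WT is higher throughout, while the 7 ESC columns hold 15 dots in all.

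Libraries have to be considered before the ESC values. In 6 of the 7 ESC tables, all but that of KO, WT library a carried almost no weight: genes whose only read lay in it had a median absolute log2 fold change of 0.0052 to 0.235, against at least 1.21 for WT b or c. The names of these tables carry the word paired, and whether pairing set these weights was not tested. Limma, set beside them below, used no pairing. These 6 tables rest on WT b and c, which differ for several of these genes. Irgm1 had 187 scaled reads in WT b and 42.8 in WT c (212 in WT a), Ifit2 117 and 40.4 (131), and Gbp3 25.7 and 8.32 (47.9). In KO-L3D, library a was at least 2-fold above library b for 18 of 38 genes (12.2% of all genes) and b above a for 0 (2.06%). In KO-S3D the counts were 22 (15.2%) and 0 (3.63%). A smaller split was present in ESC KO. Libraries a and b of ESC KO were at least 2-fold above library c for 9 and 11 of the 38 genes (4.2% and 3.67% of all genes). Library c was above a or b for 0 (1.46% and 2.59%).

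**Figure D4:**
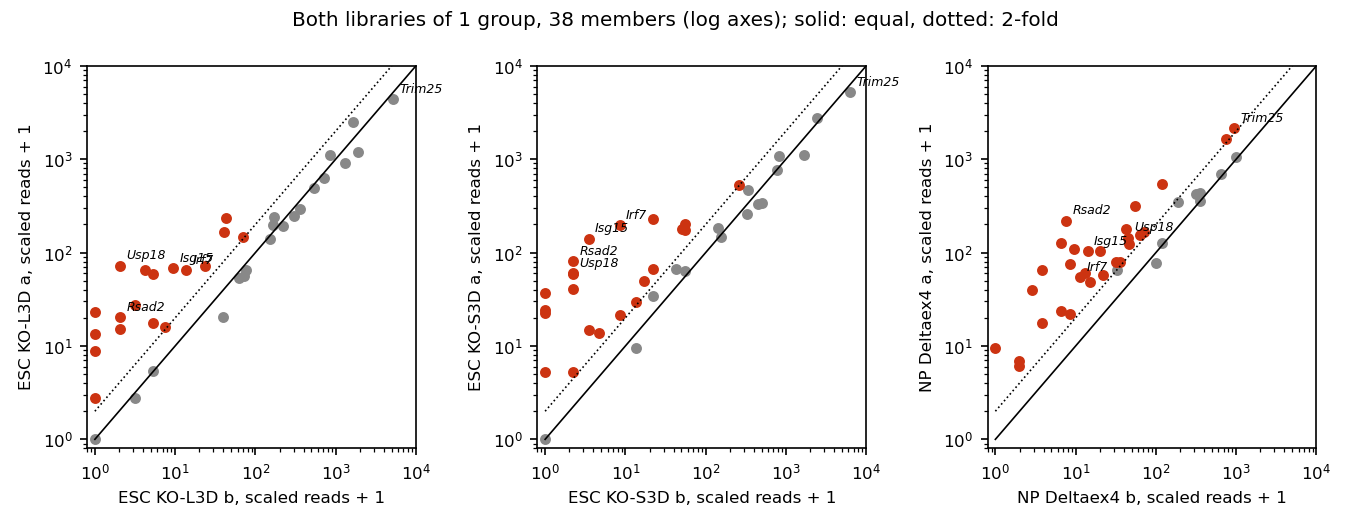
Scaled reads plus 1 (log axes) of the 38 genes in library a against library b of ESC KO-L3D, ESC KO-S3D and NP Deltaex4; red marks genes at least 2-fold apart. All red points lie on the side of library a: 18 in KO-L3D, 22 in KO-S3D and 29 in NP Deltaex4.

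Usp18, Isg15 and Rsad2 were among the genes that split these 3D libraries. Usp18 had 71.4 and 1.06 scaled reads in KO-L3D and 59.8 and 1.25 in KO-S3D. Isg15 had 67.0 and 8.51, and 139.8 and 2.50; Rsad2 had 19.4 and 1.06, and 80.0 and 1.25. In each case library a was above all WT libraries and library b was in or below their range. Csf1r was again higher in library a. It had 439 and 19.1 scaled reads in KO-L3D and 679 and 0 in KO-S3D, against 1.02 to 4.28 in WT. The 8 macrophage markers summed to 922 and 652 in KO-L3D and to 1313 and 465 in KO-S3D, against 236 to 509 in WT. Apart from Csf1r, the list summed higher in library b in KO-L3D and in library a in KO-S3D. Adgre1 and Aif1 were at 0 in all 4 libraries, and Ptprc was at 0 in KO-L3D. Other marker lists also differed between these libraries. In KO-S3D, endoderm markers summed to 1839 and 557, neural precursor markers to 2320 and 903, and fibroblast markers to 1046 and 357. In KO-L3D the same lists summed to 599 and 355, 1970 and 1866, and 1158 and 733. Endothelial markers summed higher in library b (2125 and 3282 in KO-L3D, 2045 and 2814 in KO-S3D). The part of all these markers in the split was not tested.

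In the complete knock-out of Suz12 in ESC, the authors' deposited table called 3 of 38 genes higher (11.0% of all genes tested) and 1 lower (7.27%), of 32 with an adjusted p. Zbp1, a sensor of Z-form nucleic acid that can start necroptosis, had 74.8, 93.7 and 47.4 scaled reads in KO against 7.14, 7.48 and 3.56 in WT. Xaf1, a pro-apoptotic binding partner of XIAP, had 536, 607 and 637 against 124, 166 and 187, and Oas1a 226, 375 and 235 against 52.0, 78.0 and 54.7. None of these KO libraries overlapped WT. The log2 fold changes in the authors' deposited table were 3.53 ± 0.67 for Zbp1 (SE, adjusted p 3.8e-06), 1.92 ± 0.24 for Xaf1 (3.2e-13) and 2.16 ± 0.35 for Oas1a (2.8e-08). In limma each stayed under an adjusted p of 0.05 with any 1 library left out.

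Ddx58 was lower in ESC KO, with 752, 711 and 724 scaled reads against 946, 1051 and 1270.3 in WT and a log2 fold change of -0.56 ± 0.21 (adjusted p 0.042) in the authors' deposited table. It was not called by limma (adjusted p 0.069). The ESC KO median over the 38 genes was 0.73 against 0.06 over all genes in the authors' deposited table, and 26 of 38 were above 0 (53.3% of all genes). All 3 KO libraries were above all 3 WT libraries for 11 genes (23.0% of all genes) and below for 4 (22.0%). Isg15 was among the genes that overlapped (14.2, 12.8 and 2.21 in KO), and Ifit1 had 12.3, 8.52 and 6.62 against 7.14, 1.07 and 1.19. Of the 33 genes with enough reads, limma called 4 higher (10.01% of all genes) and 0 lower (9.0%). The share called in ESC KO lay near that of all genes; the difference between ESC KO and NP KO was not tested.

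The pathway lists in ESC KO had calls in both directions in the authors' deposited table. Of genes with an adjusted p, 3 of 9 regulatory factors, 3 of 13 sensing genes and 2 of 10 signal transducers were called higher. So were 1 of 6 receptors and 1 of 10 NF-kappaB targets (11.0% of all genes tested). Called lower were 1 regulatory factor, 1 sensing gene and 1 signal transducer (7.27%). Of the 46 other interferon-inducible genes, 35 had an adjusted p, and 7 were called higher (11.0% of all genes tested), with Samd9l (2.42) and Oas1g (2.08) the largest, and 4 lower (7.27%), with Tor3a (-0.96) and Ifitm3 (-0.83) the largest, in the authors' deposited table. Sting1, an adaptor of DNA sensing, was called higher in ESC KO (2.40 ± 0.65), KO-S (2.68 ± 0.88) and KO-L3D (3.04 ± 0.85) in the authors' deposited tables; it had 73.8, 95.8 and 26.5 scaled reads in KO against 7.14, 12.8 and 14.3 in WT. Irf2 was called higher in KO (1.80 ± 0.61) and KO-L3D (2.95 ± 0.95) in the authors' deposited tables, and its KO-L3D libraries were apart (165 and 36.2). No interferon ligand had more than 5 reads in any ESC library.

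In ESC KO-L, 1 of 38 genes was called higher (1.46% of all genes tested) and 1 lower (0.771%) in the authors' deposited table, of 23 with an adjusted p. Irgm1 had 651 and 613 scaled reads against 212, 187 and 42.8 in WT, and its log2 fold change was 2.78 ± 0.51 (adjusted p 2.5e-05) in the authors' deposited table. Both libraries were above WT, but limma over all 3 WT libraries gave 2.39 with an adjusted p of 0.14, and 1.66 without WT c. Limma called 0 of the genes higher (0.0439% of all genes) and 1 lower (0.0627%). Stat2 had 230.4 and 443 against 790.2 to 953, a fold change of -1.31 ± 0.38 (log2, adjusted p 0.030) in the authors' deposited table. In limma Stat2 was called with all libraries (adjusted p 0.049) and lost without KO-L a, WT a or WT c (adjusted p 0.39, 0.17 and 0.15).

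CSex4 in ESC gave 1 gene called higher (1.72% of all genes tested) and 0 lower (0.695%) in the authors' deposited table, of 21 with an adjusted p, and it was Irgm1 again. It had 394 and 335 scaled reads, above all WT libraries, and a log2 fold change of 1.99 ± 0.58 (adjusted p 0.032) in the authors' deposited table. The limma value was 1.59 (adjusted p 0.22), and 0.86 without WT c. Limma called 0 higher (0.489%) and 1 lower (0.903%), Oasl1, which had 2.13 and 5.87 against 23.4, 17.1 and 38.03 in WT (log2 fold change -2.48, adjusted p 0.032). The guanylate-binding protein gene Gbp2, also known to respond to interferon-gamma, was higher with Irgm1 in CSex4 (2.42 ± 0.52) and KO-L (2.45 ± 0.48) in the authors' deposited tables. Fibroblast markers moved with both groups: Col1a1, Col1a2 and Col3a1 were called higher in CSex4 and in KO-L in the authors' deposited tables, and the 6 markers of that list summed to 2096 and 1313 scaled reads in CSex4 and to 2857 and 2878 in KO-L, against 427 to 1333 in WT. The same list summed to 1982 and 2697 in KO-S, where Irgm1 and Gbp2 were below WT.

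In KO-S, the authors' deposited table called 1 of 38 genes higher (4.28% of all genes tested) and 0 lower (3.63%), of 23 with an adjusted p. Xaf1 had 387 and 573 scaled reads, above all WT libraries, and a log2 fold change of 1.46 ± 0.42 (adjusted p 0.0094) in the authors' deposited table. In limma, which called 4 of the genes higher (7.72% of all genes) and 1 lower (9.45%), Xaf1 was lost without KO-S b (1.30, adjusted p 0.17). Irgm1, high in KO-L, was at 25.3 and 35.4 scaled reads in KO-S, below all WT libraries, with -1.57 and no call in the authors' deposited table. In the same KO-S libraries endoderm markers summed to 3161 and 4251 scaled reads against 82.6 to 1895 in WT, and their part was not tested. Gbp2 was lower as well (-2.45 ± 0.54, adjusted p 2.3e-04, authors' deposited table), at 27.5 and 33.1 scaled reads against 101 to 420.0 in WT. Sting1 was called higher there and, among the regulatory factors, Irf8 (2.84), in the authors' deposited table.

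The difference between the isoforms was tested in ESC from the fold changes of KO-L and KO-S and their standard errors, over 14378 genes. Of 22 of the 38 genes that could be tested, 1 differed (3.94% of all genes): Irgm1, lower in KO-S than in KO-L by a log2 difference of -4.35 ± 0.83 (SE, adjusted p 3.4e-05) computed from the authors' deposited tables. Both tables have WT libraries in common, which the standard error does not take into account. Irgm1 had 651 and 613 scaled reads in KO-L against 25.3 and 35.4 in KO-S, with no overlap. Stat2 had a difference of 1.42 ± 0.49 (adjusted p 0.076) from the authors' deposited tables, which missed the threshold. In NP the same isoforms gave Irgm1 levels that overlapped (331 and 326 against 429 and 280.4).

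KO-L3D had the most calls among the ESC tables, with a high background: 4 of 38 genes were called higher (8.22% of all genes tested) and 2 lower (10.1%), of 29 with an adjusted p in the authors' deposited table. Xaf1 had 913 and 1314 scaled reads against 124 to 187 in WT (2.62 ± 0.37, adjusted p 2.2e-10, authors' deposited table). Ifi35 had 242 and 171 against 32.1 to 44.9 (2.41 ± 0.62, adjusted p 0.0016, authors' deposited table). Ifit2 was lower, with 14.99 and 6.38 against 131, 117 and 40.4 (-2.84 ± 0.82, adjusted p 0.0063, authors' deposited table), and so was Dtx3l, with 243 and 299 against 436 to 938 (-1.26 ± 0.43, adjusted p 0.023, authors' deposited table). Limma called 10 of the genes higher (18.3% of all genes) and 4 lower (19.7%). These 4 named genes were on the same side of WT in both libraries and kept their call in limma with any 1 library left out.

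The other 2 calls in KO-L3D rested on library a. Ifi27 had 57.3 and 4.26 scaled reads (6.37 ± 2.21, adjusted p 0.028, authors' deposited table); without library a, limma gave 1.61 (adjusted p 0.43), and without WT b or WT c it was also lost (adjusted p 0.12 and 0.10). Irf7 had 64.4 and 12.8 against 1.07 to 3.06 (4.73 ± 1.73, adjusted p 0.038, authors' deposited table), and 2.38 without library a in limma (adjusted p 0.17). Irf7 was the 1 gene called in KO-S3D, where 2.05% of all genes tested were higher, with 0 lower (1.18%), of 25 with an adjusted p in the authors' deposited table. It had 196 and 7.51 scaled reads there (5.58 ± 1.46, adjusted p 0.0079, authors' deposited table), and 1.69 without library a in limma (adjusted p 0.19). With both libraries limma called 4 genes higher (11.4% of all genes) and 2 lower (14.0%).

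The 3D lines were compared with the unmutated rescues by the same test of differences. Suz12 transcript itself differed between these lines. Its log2 fold change against WT was -1.05 in KO-L, -1.85 in KO-L3D, -0.83 in KO-S and -0.06 in KO-S3D in the authors' deposited tables. In KO it was -1.82, close to that of KO-L3D. The part of the Suz12 level in the differences below was not tested. Between KO-L and KO-L3D, 3 of 24 genes differed (4.88% of 14561 genes), computed from the authors' deposited tables: Xaf1 was higher in KO-L3D by 2.18 ± 0.64 (log2, SE, adjusted p 0.020), Stat2 by 1.57 ± 0.50 (0.040), and Irgm1 was lower by -2.63 ± 0.75 (0.017). Without a minimum of the mean, the Stat2 call was lost and those of Xaf1 and Irgm1 were not. The Irgm1 libraries did not overlap (651 and 613 in KO-L, 236 and 41.5 in KO-L3D), nor did those of Xaf1 (339.9 and 169, 913 and 1314) or Stat2 (230.4 and 443, 1099 and 842). Between KO-S and KO-S3D, 0 of 23 genes differed (0.732% of 14483 genes), computed from the authors' deposited tables; Xaf1 had a difference of -0.35 ± 0.68. The standard errors in KO-S3D were large where library a and b split, so this does not show that the short isoform acted alike with and without the mutation.

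Deltaex4 in ESC had 0 of 38 genes called in either direction (of all genes tested, 0.0% were called higher and 0.0% lower) by the authors' deposited table, and 0 at an unadjusted p under 0.05. Limma also called 0. The median over the 38 genes was 0.13 against 0.02 over all genes in the authors' deposited table. Irgm1 was at 76.1 and 144 scaled reads and Xaf1 at 209 and 127, in or near the range of WT.

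Xaf1 was thus called in 3 of the 7 ESC tables, and Irgm1 and Irf7 in 2 each. Ifit1, Ifit3, Ifit3b, Isg15, Usp18, Rsad2, Mx1, Mx2, Rtp4 and Ifi44 were called in none, but most of their values had no adjusted p: of the 17 effectors, 6 to 8 had one in the tables other than KO and Deltaex4. Mx2 and Rtp4 had no read in any ESC WT library. Rtp4 had 4.73, 8.52 and 4.41 scaled reads in ESC KO, at least 1.80-fold higher with a floor of 3 reads per library.

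The deposited region lists, which the submitters made with DiffBind from ESC ChIP-seq, were compared with gene positions from RefSeq (GRCm38.p6). Either end of 5 of the 38 genes (13.2%) lay within 2500 bp of a listed H3K27me3 region, against 19.6% of 26120 genes. These were Isg15, Ifih1, Dhx58, Igtp and Xaf1, which lies on chromosome 11 from 72301461 to 72313733 and had a region from 72313594 to 72315926 over its end. For Suz12 it was 1 gene (2.63%, against 10.4% of 26120 genes): Isg15, at chromosome 4, 156199424 to 156200818, had a Suz12 region at 156202507 to 156204693, upstream of its start, and an H3K27me3 region at 156200857 to 156206646 that begins just before it. Zbp1 and Oas1a, both higher in ESC KO, had no listed region within that distance. The lists do not state which conditions were compared or in which direction, so no direction is drawn from them.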

How the data were processed

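RNA-seq was deposited as 13 comparison tables, 7 of ESC and 6 of NP. Per the file headers and the submitters' processing notes, which name DESeq2, TopHat, Bowtie and DiffBind without versions and the builds mm10 and dm3, the authors deposited for each gene a signal (the mean of size-factor scaled reads over the libraries compared), a log2 fold change with its standard error, a test score (fold change over standard error), a p-value and an adjusted p-value. The table names carry the word paired; how samples were paired, the annotation and the counting are not given in the sources used here. The calls are the authors' (adjusted p under 0.05).

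Per-library reads are an inference: because the deposited signal has 15 significant digits, the whole reads whose scaled mean gives each value were solved for, which succeeded for 97.6% of 22130 ESC genes and 99.8% of 22456 NP genes, and for all 38 genes. In ESC, 35 of the 38 had 1 nearest solution, and in NP 38. The method was tested on simulated data. Library letters cannot be matched to single samples. Reads were divided by median-of-ratios size factors over 14433 genes, and limma 3.58.1 in R 4.3.3 was run on log2(scaled reads + 1) for genes with a mean of at least 5, with all libraries of a cell type in 1 fit; this was chosen after seeing the data. Fold changes on that scale understate changes of low genes. Differences between ESC groups were tested from the deposited fold changes and standard errors (normal approximation, Benjamini-Hochberg over all genes with a mean of at least 10 in both tables). Region lists made with DiffBind were used for their positions only.

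The genes and the lists were chosen with earlier results of these data known. Within each role the called genes with the largest and smallest change, those called against the majority, and uncalled ones where 5 or fewer were named; further genes were named after their values were seen. The 55 ChIP-seq samples entered only through the region lists. Some genes of the pathway lists are not reported here.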

Additional observations from a re-analysis of the deposited data

Results flagged for a closer look

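Among the 4 NP WT libraries, library a stood apart from the others for 2 of the 38 genes. Chance sets about 1 in 20 groups apart, so that count is near the chance rate. Oasl1 had 23.56 scaled reads in library a and 1.73 to 2.88 in the other libraries. Trim25 had 2652 in library a and 985 to 1129 in the others. Without NP WT a, limma called 8 of the 38 genes in NP CSex4, against 3 with it. With library a, 12.9% of all genes were called higher and 14.4% lower. The share of all genes without it is not given here, so no effect on these genes is drawn from the counts. Library a was at least 2-fold above libraries b, c and d for 8, 11 and 17 of the 38 genes, and below them for 0, 1 and 1. Neural precursor markers summed to 10888 scaled reads in library a and to 31745 to 37841 in the others; their part was not tested. Between ESC and NP, the effect of CSex4 differed for 0 of 23 genes tested, against 711 of 14304 over all genes. With so few genes tested, a count of 0 lies near that share. For Deltaex4 it was 0 of 21 against 1 of 14078. Neither count says anything about these genes, and the NP side of both shares WT libraries a and b with the choice of the genes.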

How the results depend on the processing

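No paired analysis was possible because the tables hold 1 fitted value per gene and comparison and the recovered libraries carry no replicate numbers, so which library pairs with which is not known. The deposited tables are named paired and the limma fits have no block; how far this sets limma apart from the tables was not tested. No direction reversed. A minimum mean of 10 kept 13 of 13 counts of called genes within 1.5 times, a log2 fold change of at least 1 kept 13 of 13, and leaving out the Ifit genes and Isg15 kept 16 of 16. With an adjusted p under 0.01, the counts were 0 in ESC CSex4, 1 in ESC KO-L, 3 in ESC KO-L3D and 0 between ESC KO-L and KO-L3D. With limma they were 1 in ESC KO-L, 5 in ESC KO-S, 14 in ESC KO-L3D, 6 in ESC KO-S3D and 3 in NP CSex4; the cause was not tested. Leaving out 1 library at a time in limma gave 0 to 1 in ESC CSex4, 3 to 6 in ESC KO, 0 to 1 in ESC KO-L, 0 to 6 in ESC KO-S, 7 to 10 in ESC KO-L3D and 2 to 12 in ESC KO-S3D, where the lowest was without library a and the highest without library b. In NP the ranges were 0 to 8 in CSex4, 35 to 38 in KO, 26 to 29 in KO-L against KO and 23 to 33 in KO-S against KO. It was 0 in Deltaex4 of both cell types. A library left alone in its group is assumed to vary like the other groups. The NP ranges for KO and for KO-L against KO restate the choice of the genes. KO-S against KO shares its KO libraries with that choice. With all libraries, limma called 26.0% of all genes higher and 26.5% lower in NP KO. The shares were 13.1% and 14.0% in KO-L against KO and 16.1% and 15.3% in KO-S against KO. In the ESC tables, 22 to 30 of the 38 genes had a mean of at least 10. The remaining genes had few reads, which limits what those tables can call.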
